A study of Mus musculus with 4 samples.

Results

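The 10 genes described here were 3 metallothioneins (Mt1, Mt2 and Mt3) and 7 genes of the stress and glucocorticoid response (Fkbp5, Tsc22d3, Sgk1, Ddit4, Cdkn1a, Txnip and Errfi1), chosen by name from the 27487 genes listed across the 4 count tables. All 10 were listed. They were measured by Drop-seq, a droplet method that tags the 3′ end of each captured transcript with a unique molecular identifier (UMI), in dissociated cerebral cortex of 24-week-old mice. The 4 libraries were female wild-type, female Tg2576, male wild-type and male Tg2576, each made from 9 pooled mice. Tg2576 mice, B6;SJL-Tg(APPSWE)2576Kha, were heterozygous for a human APP transgene with the Swedish mutation of familial Alzheimer disease, which in this line is driven by the hamster prion promoter. The wild-type mice were their littermates. All mice were perfused with PBS under ketamine and a second anaesthetic, and all cortices were dissociated with the same enzymatic kit. With 1 pooled library per sex and genotype, the mice within a pool could not be separated and a difference between sexes in the genotype effect could not be tested.

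Metallothioneins are small cysteine-rich proteins that bind zinc and copper. Mt1 and Mt2 are induced by metals, through the metal-responsive factor MTF1, and by glucocorticoids, while Mt3 is a brain form that responds little to metals. Glucocorticoids cross membranes and activate the glucocorticoid receptor, encoded by Nr3c1, which enters the nucleus and binds DNA at palindromic response elements. Among its well-known targets are Fkbp5, a co-chaperone that lowers the hormone affinity of the receptor, Tsc22d3 (also called GILZ), an anti-inflammatory leucine zipper protein, Sgk1, a kinase that controls ion transport, and Ddit4 (REDD1), an inhibitor of the growth kinase complex mTORC1. Cdkn1a (p21) halts the cell cycle downstream of p53, Txnip inhibits thioredoxin and limits glucose uptake, and Errfi1 (MIG6) is a feedback inhibitor of the EGF receptor.

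On mouse chromosome 8 of RefSeq's GRCm38.p6 annotation the metallothionein genes lay side by side on the plus strand, Mt3 at chr8:94152607-94154148, Mt2 at chr8:94172618-94173567 and Mt1 at chr8:94178883-94180327, within 27.7 kb in all. The gap between Mt2 and Mt1 was 5315 bases, and 1 other listed gene, Gm39227, lay between the outer members. Their promoter windows, the 250 bases before the start used in the RefSeq promoter table, are shown because Mt1 and Mt2 had the most alike levels over cell types and libraries, and Mt3 was less like them. Capitals mark matches to the core of the metal response element, searched as TGCACNC or TGCGCNC on both strands.
Mt1, chr8:94178839-94179088, plus strand: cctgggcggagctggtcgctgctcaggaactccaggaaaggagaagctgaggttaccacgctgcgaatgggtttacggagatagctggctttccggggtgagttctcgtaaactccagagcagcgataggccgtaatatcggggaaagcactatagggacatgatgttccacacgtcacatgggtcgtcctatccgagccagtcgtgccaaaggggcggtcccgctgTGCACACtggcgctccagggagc
Mt2, chr8:94172368-94172617, plus strand: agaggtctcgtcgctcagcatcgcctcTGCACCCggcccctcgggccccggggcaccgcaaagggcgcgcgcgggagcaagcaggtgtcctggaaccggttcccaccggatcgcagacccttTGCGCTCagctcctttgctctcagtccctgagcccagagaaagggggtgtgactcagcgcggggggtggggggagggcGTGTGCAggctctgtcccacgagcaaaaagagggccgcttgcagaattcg
Mt3, chr8:94152357-94152606, plus strand: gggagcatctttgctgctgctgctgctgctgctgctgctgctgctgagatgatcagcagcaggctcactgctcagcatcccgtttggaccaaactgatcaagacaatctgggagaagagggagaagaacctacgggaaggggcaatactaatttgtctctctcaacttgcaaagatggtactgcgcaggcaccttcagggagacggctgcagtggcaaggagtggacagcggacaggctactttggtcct

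Mt1 had 1 core, 23 bases before that start, Mt2 had 3, at 223, 128 and 50 bases before it, and Mt3 had none. The Mt1 window straddles the first base of its gene record, since the promoter table uses a later start, and the Mt1 core lies inside the record. The windows of Mt1 and Mt2 are thus unlike regions, and their numbers of cores are not compared. A core was present in 21.4% of 32851 mouse promoters, and 5.17% held 2 or more. Among the other members, 1 core each was found for Ddit4 and Txnip. The full palindrome of the glucocorticoid response element, searched as GAACA and TGTTC with any 3 bases between, was found in 13 of the 32851 promoters (0.0396%), and 1 of them was the fifth of 6 promoters of Sgk1 (chr10:21993640-21993889, plus strand), 188 bases before its start and in capitals here.
Sgk1: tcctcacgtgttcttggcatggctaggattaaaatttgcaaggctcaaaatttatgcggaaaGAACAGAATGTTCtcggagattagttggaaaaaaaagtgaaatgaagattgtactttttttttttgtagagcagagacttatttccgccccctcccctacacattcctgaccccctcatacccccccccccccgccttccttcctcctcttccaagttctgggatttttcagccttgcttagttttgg

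These matches describe letters in a window and were not measured as bound sites. The gene records of the other members were Fkbp5 at chr17:28398753-28486149, Tsc22d3 at chrX:140539528-140600522, Sgk1 at chr10:21882184-21999903, Ddit4 at chr10:59949675-59951770, Cdkn1a at chr17:29090979-29100722, Txnip at chr3:96557957-96561857 and Errfi1 at chr4:150853796-150868889.

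After filtering, 4835 of 12000 barcodes were kept as cells, between 1010 and 1532 per library, with 1593675 to 1758582 UMIs per library. The median cell held 909 to 1331.5 UMIs. The median mitochondrial share was higher in females (8.77% and 9.35%) than in males (6.64% and 4.41%). App, whose reads can include those of the human transgene, was at 889 and 1178 CPM (a gene's counts scaled to the same total in every library) in the female and male wild-type libraries and at 1575 and 1567 CPM in the Tg2576 libraries. Xist and Ddx3y followed the sex labels, with 3 Xist UMIs in the male Tg2576 library. Cells were grouped into clusters named by marker genes, so that each name below stands for cells like that type, and 4 types carried the genotype tests: microglia (1855 cells), astrocytes (879), oligodendrocytes (353) and endothelial cells (963). The cluster markers of choroid plexus and olfactory ensheathing cells were also present in tissue labelled cortex, and only 99 cells had a neuronal profile. Kept cells of different libraries shared 6 barcodes, found in 18 cells.

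The members fell into 3 groups by the cell type with their highest mean level, among the 6 types with at least 20 cells in every library. Mt1, Mt2 and Mt3 were highest in astrocytes, Fkbp5, Tsc22d3, Sgk1 and Txnip in microglia, and Ddit4, Cdkn1a and Errfi1 in mural cells, which are the pericytes and smooth muscle cells of vessels. The mural cells also held 10 endothelial markers at a summed 4997 to 13312 CPM, against 26287 to 31361 CPM in endothelial cells. Kept cells held 8692 UMIs of Mt1, 3760 of Mt3, 3037 of Mt2, 2250 of Sgk1, 1495 of Txnip, 1200 of Tsc22d3, 697 of Cdkn1a, 368 of Ddit4, 346 of Errfi1 and 238 of Fkbp5. A UMI counts 1 transcript end whatever the length of the gene. Levels are given as CPM of the summed UMIs of a cell type in a library, with 95% exact Poisson intervals where stated, which cover counting error only.

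**Figure D1:**
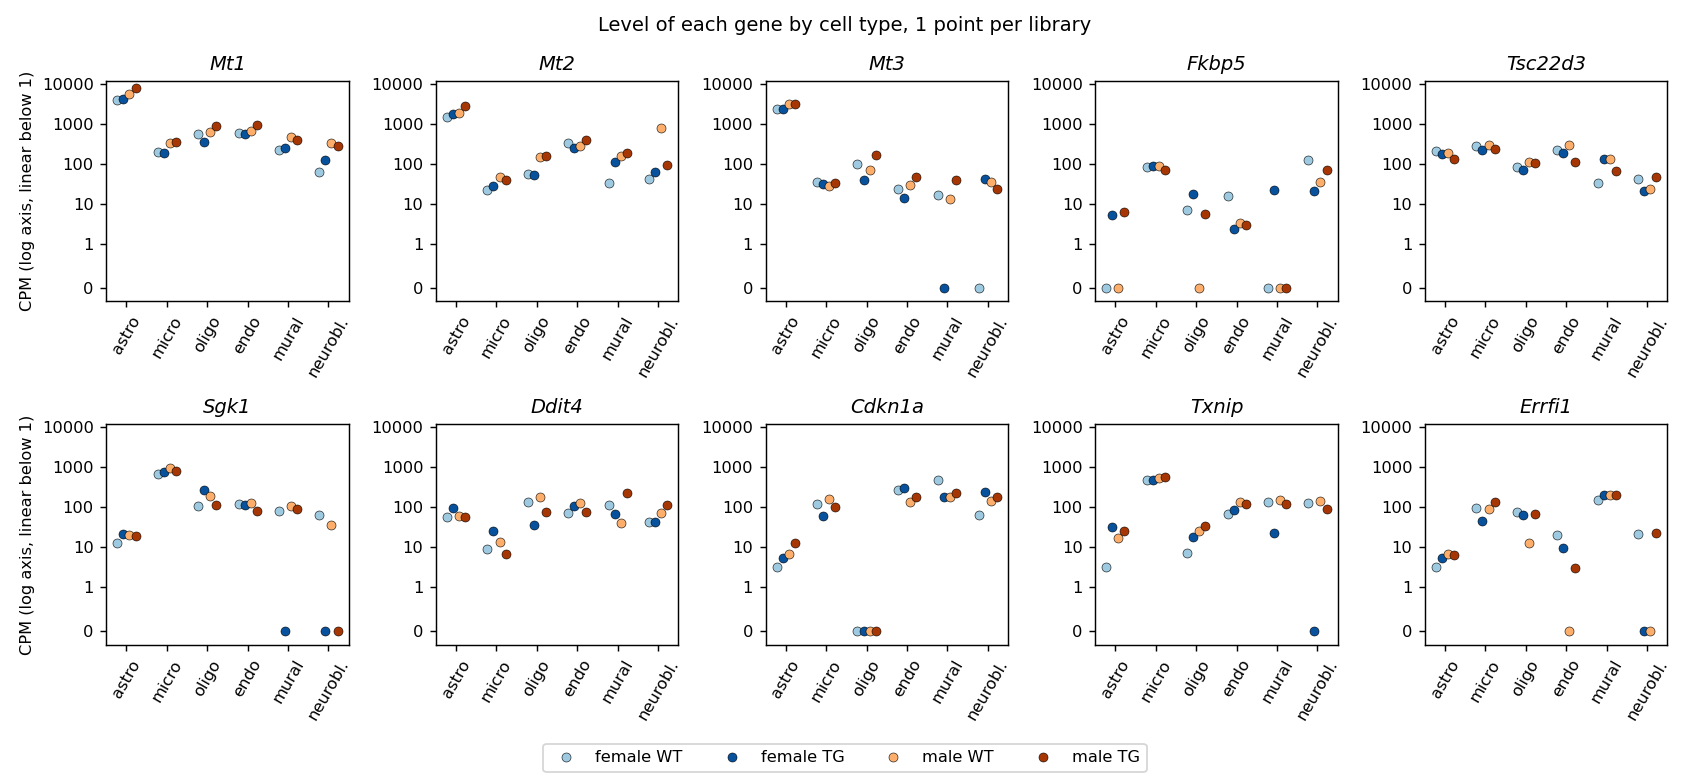
Level of each of the 10 genes (CPM, vertical axis, log scale that is linear below 1) in 6 cell types (horizontal axis), 1 point per library. The metallothioneins peaked in astrocytes at mean levels of 5435, 2005 and 2767 CPM, while Sgk1 and Txnip stood apart from the other types shown in microglia at 804 and 509 CPM.

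Across these 6 types, neighbouring types in the order of mean level had libraries that did not overlap in 13 of 50 neighbour pairs. The highest type stood apart from the next for Mt1, Mt2, Mt3, Sgk1, Txnip and Errfi1, and overlapped with it for Fkbp5, Tsc22d3, Ddit4 and Cdkn1a.

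Between the 4 main types, 42 of 60 contrasts of the members passed the test, edgeR's quasi-likelihood test on UMIs summed per library and type with the library as a block, at a Benjamini-Hochberg adjusted p under 0.05 and at least 2-fold. Over all 7415 genes tested, 50.2% passed for astrocytes against microglia, 45.9% for oligodendrocytes against microglia, 37.4% for endothelial cells against microglia, 32.3% for astrocytes against oligodendrocytes, 42.5% for astrocytes against endothelial cells and 37.5% for endothelial cells against oligodendrocytes. The members passed in 9, 9, 7, 6, 6 and 5 of 10 tests in that order. Mt2 passed in all 6 contrasts and Tsc22d3 in 1, while other Tsc22d3 contrasts had an adjusted p under 0.05 but were under 2-fold. Some contrasts that passed involve levels read below as background, such as Mt3 in oligodendrocytes against microglia.

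Astrocytes carried the metallothioneins. Mt1 was at 3929 CPM in wild-type and 4306 CPM in Tg2576 females, and at 5653 CPM in wild-type and 7850 CPM in Tg2576 males. In this order of libraries, kept below wherever 4 values follow each other, Mt2 was at 1536, 1808, 1898 and 2779 CPM, and Mt3 at 2411, 2418, 3108 and 3129 CPM. For all 3 genes the male libraries were above the female ones, and for Mt1 and Mt2 the male Tg2576 library was the highest by a wide margin. A UMI of Mt1 was found in 94.4% of 879 astrocytes (95% Clopper-Pearson interval 92.7 to 95.8%), one of Mt3 in 86.0% and one of Mt2 in 78.0%. With every cell thinned to 500 UMIs, the shares of the 729 cells that remained were 87.7%, 70.4% and 58.4%. The median astrocyte held 4 to 7 Mt1 UMIs, and 28.1 to 33.0% of Mt1 UMIs came from the 10% of cells with the most in each library.

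Against microglia, Mt1 was 20.4-fold higher in astrocytes (log2 4.35 ± 0.16 SE, n = 4 libraries, edgeR adjusted p = 2.763e-74). Against endothelial cells Mt1 was 8.94-fold and Mt2 7.30-fold higher. The counted folds of Mt2 and Mt3 over microglia, 58.9 and 85.6, and of Mt3 over endothelial cells, 110.6, have denominators at the background described below, so that they can understate the difference and their order is not read. Endothelial cells had Mt1 at 569 to 924 CPM and Mt2 at 250 to 391 CPM in the 4 libraries but Mt3 at 14.4 to 48.5 CPM. Oligodendrocytes had Mt1 at 349 to 885 CPM, Mt2 at 52.4 to 160 CPM and Mt3 at 40.7 to 166 CPM.

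The 3 metallothioneins stood in different proportions in astrocytes, endothelial cells and choroid plexus cells. Mt3 made up 27.0% of their summed UMIs in astrocytes (22.7 to 30.6% in the 4 libraries) and 2.78% in endothelial cells (1.73 to 3.56%). In the choroid plexus cells it made up 72.7% (62.0 to 100%), with Mt3 at 1228 to 1458 CPM. These were 15, 12, 42 and 40 cells, under 20 in the female libraries. The 100% came from 22 UMIs in the female Tg2576 library, and no background was gauged for this type. The libraries of astrocytes, endothelial cells and choroid plexus cells did not overlap. The shares in microglia (7.01 to 13.8%) and oligodendrocytes (7.91 to 13.7%) overlapped, and rest on UMIs near the background described next. Mt2 UMIs per Mt1 UMI were 0.365 in astrocytes (0.336 to 0.420) and 0.452 in endothelial cells (0.413 to 0.584), with overlapping libraries.

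**Figure D2:**
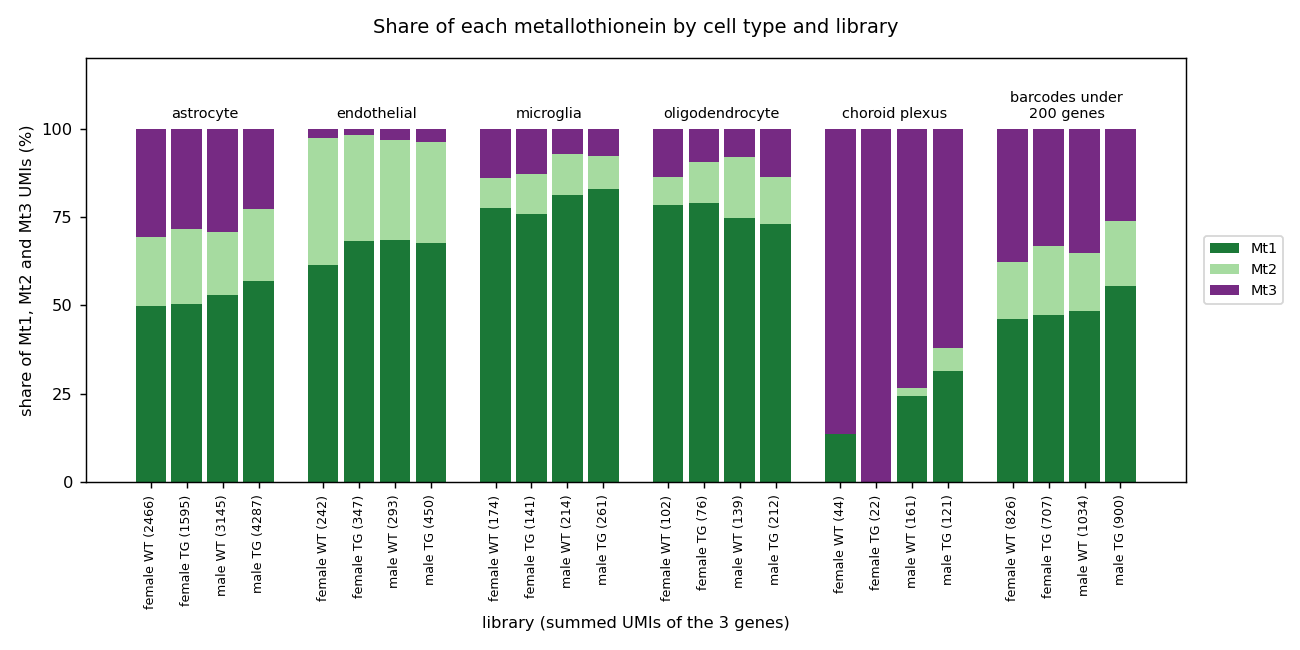
Share of Mt1, Mt2 and Mt3 among their summed UMIs (percent, vertical axis) in 5 cell types and in barcodes with under 200 genes, 1 bar per library with the summed UMIs in brackets. Mt3 filled 2.78% of the endothelial, 27.0% of the astrocyte and 72.7% of the choroid plexus UMIs over all libraries.

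Barcodes with under 200 genes, taken here as a gauge of free RNA, held Mt1 at 1489, 1262, 2273 and 2239 CPM in the same order, with a Mt3 share of 33.0%. The median of 10 astrocyte markers in endothelial cells was 1.18 to 1.37% of its astrocyte level, whereas Mt1 was at 11.8 to 15%, Mt2 at 13.8 to 22.3% and Mt3 at 0.60 to 1.55%. In microglia the same markers were at 1.20 to 1.63%, Mt3 at 0.91 to 1.49%, Mt2 at 1.44 to 2.48% and Mt1 at 4.27 to 5.79%. In oligodendrocytes the markers were at 1.5 to 3.66%, Mt3 at 1.69 to 5.29%, Mt2 at 2.90 to 7.89% and Mt1 at 8.11 to 14.3%. Mt3 in all 3 types and Mt2 in microglia were thus close to the level of astrocyte markers that these cells should lack, and are read as background. Endothelial Mt1 and Mt2 were above each of the 10 markers in 3 of 4 libraries, and below the highest of them, at 15%, in the female Tg2576 library. Microglial Mt1 was below the highest single marker in 3 of 4 libraries. Oligodendrocyte Mt2 was at 3.66, 2.90, 7.89 and 5.75%, against 4.94, 5.93, 4.25 and 10.5% for the highest marker there.

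The 4 receptor targets among the members did not share one pattern. Sgk1 stood apart in microglia, Fkbp5 and Tsc22d3 had their highest mean there but overlapped with the next type, and Ddit4 was lowest there. Fkbp5 in microglia was at 82.5, 89.3, 86.6 and 72.0 CPM, and in neuroblast or progenitor cells at 21.5 to 129 CPM. In astrocytes it had 0, 1, 0 and 2 UMIs. The microglial level was 26.4-fold that of astrocytes (edgeR adjusted p = 3.871e-17) and 16.2-fold that of endothelial cells (2.182e-18). A UMI was found in 8.73% of 1855 microglia (7.49 to 10.1%) and in 0.34% of astrocytes.

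Sgk1 in microglia was at 670, 745, 973 and 828 CPM, well above every oligodendrocyte library, which were at 105, 262, 187 and 114 CPM. It was 42.9-fold above astrocytes, 8.50-fold above endothelial cells and 4.88-fold above oligodendrocytes, and was seen in 44.9% of microglia against 1.71% of astrocytes.

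Tsc22d3 was the most even of the members. Its mean was 256 ± 36.7 CPM in microglia, 206 ± 80.1 in endothelial cells, 178 ± 33.8 in astrocytes and 93.7 ± 20.2 in oligodendrocytes (SD, n = 4 libraries). The contrast of oligodendrocytes with microglia passed the test, 2.76-fold lower (edgeR adjusted p = 1.072e-10), while those of astrocytes and endothelial cells with oligodendrocytes were 1.93-fold and 1.92-fold.

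Ddit4 was sparse in microglia and spread over the other types. It was at 9.0, 25.8, 13.2 and 6.7 CPM in microglia, against 57.5, 96.3, 61.0 and 57.8 CPM in astrocytes. Relative to microglia it was 7.24-fold higher in oligodendrocytes, 6.07-fold in endothelial cells and 4.89-fold in astrocytes. No contrast among those 3 types passed the test (edgeR adjusted p between 0.11 and 0.47), and its highest mean, 112 ± 81.3 CPM in mural cells, came from libraries with 3 to 17 UMIs.

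Txnip stood at 471, 470, 527 and 567 CPM in microglia, and in astrocytes at 3.2, 32.1, 16.9 and 25.7 CPM. The difference was 27.7-fold, and it was 24.2-fold against oligodendrocytes and 5.80-fold against endothelial cells.

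Cdkn1a was highest in cells of vessels, followed by neuroblast or progenitor cells and microglia. In endothelial cells it was at 276 and 298 CPM in the female and at 139 and 179 CPM in the male libraries, and in mural cells at 176 to 474 CPM. In neuroblast or progenitor cells it was at 64.4 to 237 CPM, overlapping both, and in microglia at 60.1 to 156 CPM. In oligodendrocytes 0 UMIs were counted among 649576, which allows up to 4.62 CPM at 3 counts over the group. The endothelial mean was therefore at least 48.2-fold higher. None of 353 oligodendrocytes held a UMI, which allows a share of cells with a UMI of up to 0.85% at this depth and does not limit the share of cells that express the gene. Astrocytes were at 3.2 to 12.8 CPM.

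Errfi1 was highest in mural cells, at 147, 200, 203 and 198 CPM, and next in microglia, at 93.0, 44.6, 92.2 and 134 CPM. The mural values came from 9, 9, 15 and 15 UMIs. The mural libraries lay above all microglial ones. Endothelial cells, at 0 to 19.7 CPM, and astrocytes, at 3.2 to 6.8 CPM, had few UMIs.

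The genes that moved most like each member were sought among 5977 genes over 37 sums of a cell type in a library, as Pearson's r of log2(CPM + 10). These sums share libraries and depth, and r is given as a description. Mt1 and Mt2 were each other's closest gene (r = 0.85), ahead of Fgfr3 (0.81) and Acsl3 (0.80) for Mt1 and of Ddah1 (0.77) and AI464131 (0.76) for Mt2. Mt3 was closest to the astrocyte genes Clu (0.88), Kcnk1 (0.87) and Aldh1l1 (0.84), and its r with Mt1 and Mt2 was 0.41 and 0.33. Txnip was closest to Il6ra (0.87), Zfp36 (0.87) and 9930111J21Rik2 (0.85), and Cdkn1a to Anp32a (0.83) and 2900026A02Rik (0.77). Fkbp5 was closest to Edem1 (0.74), Tle3 (0.74) and March1 (0.72). Tsc22d3 was closest to Rnf215 (0.77), Sparc (0.76) and Slc3a2 (0.74), Sgk1 to Gm7335 (0.76), Gm8814 (0.74) and Rps6ka1 (0.74), Ddit4 to Amd1 (0.78), Rdx (0.73) and Clic4 (0.73), and Errfi1 to Adap2 (0.75) and Plxdc2 (0.72).

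Of the machinery around the members, Hsd11b1 was highest in astrocytes, as the metallothioneins were, while Slc30a1 and Mtf1 were not. Nr3c1, the glucocorticoid receptor, was at 241 to 347 CPM in microglia, 268 to 326 in astrocytes, 228 to 368 in oligodendrocytes and 342 to 489 in endothelial cells. These ranges overlapped between neighbouring types. Nr3c2, the mineralocorticoid receptor, had mean levels of 5.85 to 27.4 CPM in the 4 types. Hsd11b1, the enzyme that regenerates active glucocorticoid, was at 79.8, 96.3, 180 and 189 CPM in astrocytes and had mean levels of 0 to 2.16 CPM in the others. The zinc exporter Slc30a1, a target of MTF1, was highest in endothelial cells, at 266 ± 36.3 CPM against 37.7 ± 10.3 in astrocytes, and Mtf1 itself in oligodendrocytes, at 96.9 ± 6.63 CPM (SD, n = 4 libraries).

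Of 24 other glucocorticoid target genes, 16 were tested between types, and 6 were higher and 6 lower in astrocytes than in microglia, with a median log2 difference of -0.68 against -0.04 over all genes. In endothelial cells 4 were higher and 6 lower than in microglia (median -0.65 against -0.01). Klf9, a hormone-responsive transcription factor, was at 279 to 393 CPM in astrocytes and 6.7 to 17.2 CPM in microglia, while Dusp1, a phosphatase of MAP kinases, was at 685 to 1290 CPM in microglia and 31.9 to 74.9 in astrocytes. Dusp1 is also induced by tissue dissociation.

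Tg2576 and wild-type mice were compared first within each sex, as the log2 ratio of CPM with an exact binomial 95% interval that covers counting error only, and then over both sexes by edgeR with sex as a covariate and 1 residual degree of freedom. The members with at least 100 UMIs gave 29 ratios, of which 6 were past 0.5 in either direction. Over all genes measured as deeply, 13.2% were past it in female and 13.6% in male astrocytes, 10.5% and 11.4% in microglia, 19.1% and 15% in endothelial cells and 10% and 14.4% in oligodendrocytes. Of 28 edgeR tests of members in the 4 types, 1 passed, against 0.669% of all genes in microglia, 0.23% in astrocytes, 0.227% in oligodendrocytes and 0% in endothelial cells. In endothelial cells 286 genes were under an unadjusted p of 0.05 by edgeR and none passed with DESeq2.

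**Figure D3:**
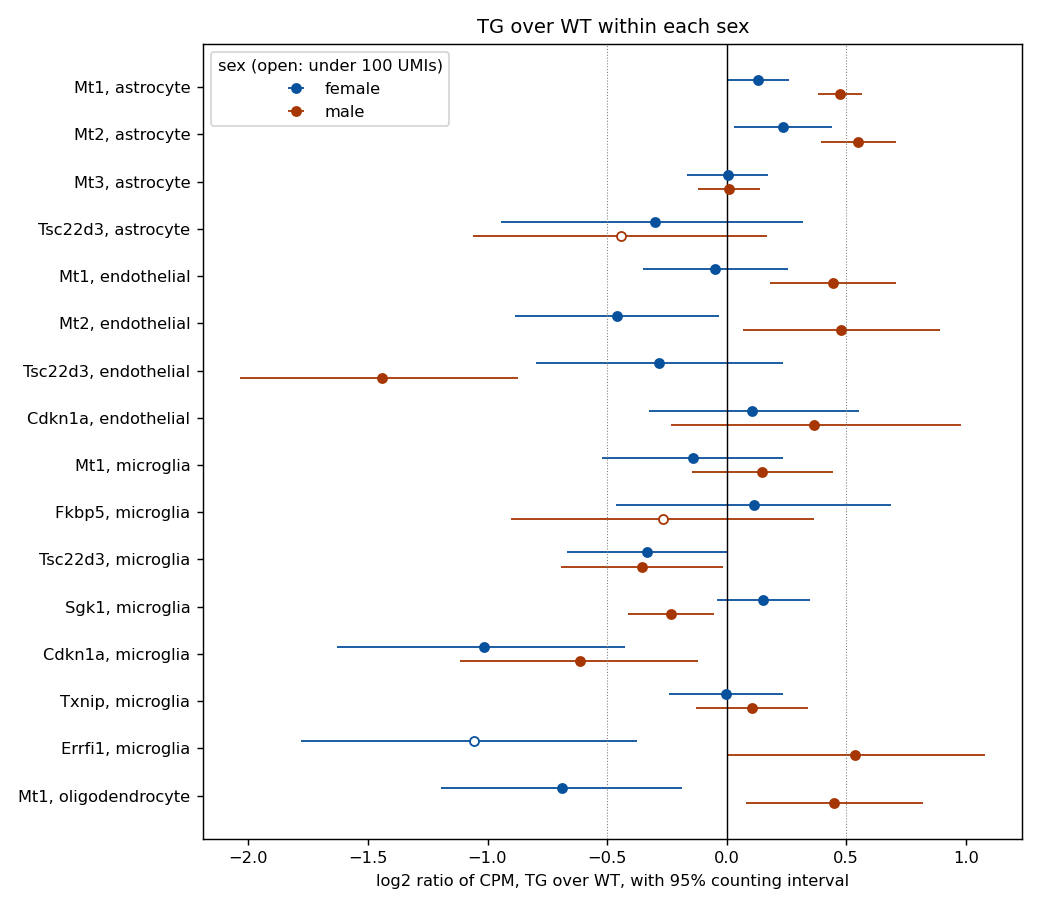
Log2 ratio of Tg2576 to wild-type CPM (horizontal axis) for the members in 4 cell types, females and males apart, with 95% counting intervals. Mt1 and Mt2 in astrocytes lay above 0 in both sexes, though female Mt1 turned to -0.0200 with TMM factors, Mt3 lay at 0, and Cdkn1a in microglia lay below 0 in both.

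In astrocytes Mt1 and Mt2 had higher CPM in Tg2576 than in wild-type mice, with counting intervals above 0 in both sexes, and Mt3 was level, but the female direction of Mt1 depended on the scaling. The ratio of Mt1, from the levels printed above, was log2 0.13 for females (interval 0.003 to 0.26) and 0.47 for males (0.38 to 0.56). That of Mt2 was 0.24 (0.03 to 0.44) and 0.55 (0.40 to 0.71), and that of Mt3 was 0.00 and 0.01. With TMM factors, the scaling of the edgeR fit, the female Mt1 ratio turned to -0.0200 and the female Mt2 ratio fell to 0.0826, and without a mitochondrial limit the female Mt2 ratio was 0.00567. The median of all genes measured was -0.01 in females and 0.08 in males. Over both sexes the difference was 0.26 ± 0.11 for Mt1 (SE, 2 against 2 libraries, edgeR unadjusted p = 0.024, adjusted p = 0.498) and 0.35 ± 0.12 for Mt2 (0.0032 and 0.237), so neither passed the test. Whether the male and female ratios differ was not tested.

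Female astrocytes were the weaker case. With cells of at most 10% mitochondrial UMIs, which left 59 and 41 of the 219 and 155 female astrocytes, the female Mt1 ratio became -0.17, while the male ratio stayed at 0.43. In the barcodes with under 200 genes Mt1 was level between the male libraries (2273 and 2239 CPM). After thinning, Mt1 was found in 81.1% of wild-type and 84.3% of Tg2576 astrocytes in females and in 88.0% and 94.6% in males. The thinned share for Mt2 was 51.1% and 50.7% in females and 55.4% and 70.7% in males. The mitochondrial share of astrocytes was 13.1%, 13.5%, 9.17% and 6.62% in the order used throughout, and the summed level of the 17 genes induced by tissue dissociation was 1377, 2402, 2535 and 2343 CPM. The part of either in these ratios was not tested.

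**Figure D4:**
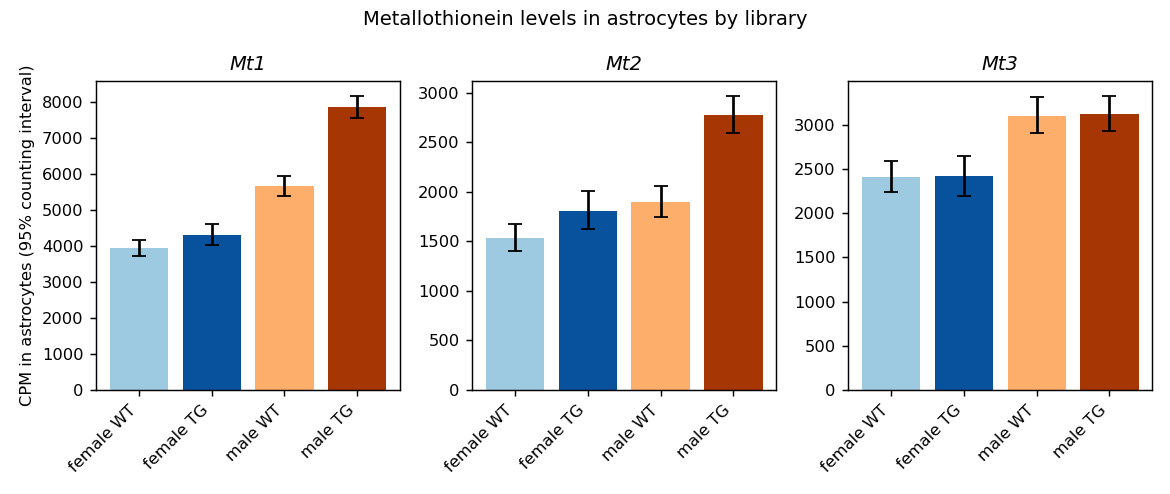
Levels of Mt1, Mt2 and Mt3 in astrocytes (CPM, vertical axes from 0), 1 bar per library with its 95% counting interval. The male Tg2576 library stood highest for Mt1 at 7850 CPM and Mt2 at 2779 CPM, while Mt3 was at 3108 and 3129 CPM in the male libraries.

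In endothelial cells the male libraries showed the same direction, with Mt1 at 679 in wild-type and 924 CPM in Tg2576 (log2 0.44, interval 0.18 to 0.71). The female ones did not, at 588 and 569 CPM (-0.05, -0.35 to 0.26). In microglia Mt1 was at 202 and 184 CPM in females and 327 and 363 CPM in males, with both intervals including 0. In none of these types did a metallothionein pass the genotype test.

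Cdkn1a in microglia was the member that passed. Its level went from 121 CPM in wild-type to 60.1 CPM in Tg2576 females, and from 156 to 102 CPM in males. Both Tg2576 libraries were below both wild-type ones. The female log2 ratio was -1.01 (interval -1.63 to -0.43), the male one was -0.61 (-1.12 to -0.12), and the edgeR estimate over both was -0.84 ± 0.22 (SE, adjusted p = 0.0273). This call rested on the processing, since it was lost in 9 of 13 alternatives, with adjusted p between 0.0328 and 0.9997, and DESeq2 gave -0.86 ± 0.46 (unadjusted p = 0.062). In endothelial cells Cdkn1a gave 0.16 ± 0.22 (edgeR adjusted p = 0.964).

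The microglia fell into 3 clusters that differed in Cdkn1a and in their share of each library. Cdkn1a was at 152 CPM in the largest, led by Tnfaip3, at 16.6 CPM in the one led by Sla and P2ry6 (the P2ry6 cluster) and at 140 CPM in the one led by Ccl4. The P2ry6 cluster held 35.2% of wild-type and 57.0% of Tg2576 microglia in females and 24.8% and 29.6% in males, so it was larger in Tg2576 mice in both sexes. Within the Tnfaip3 cluster alone, Cdkn1a was at 172 and 76.7 CPM in females (log2 -1.16, interval -2.01 to -0.39) and at 204 and 134 CPM in males (-0.61, -1.18 to -0.04), and the edgeR estimate was -0.85 with an adjusted p of 0.632. The ratio was thus as large in the Tnfaip3 cluster alone, but the call was lost. The other clusters did not share this direction. In the P2ry6 cluster Cdkn1a was higher in Tg2576 mice, with 1 and 6 UMIs in females (log2 2.01, interval -1.03 to 7.54) and 0 and 5 in males. In the Ccl4 cluster the ratio was 0.33 in females (-0.94 to 1.55) and -0.78 in males (-2.08 to 0.45). The intervals in these clusters all included 0.

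**Figure D5:**
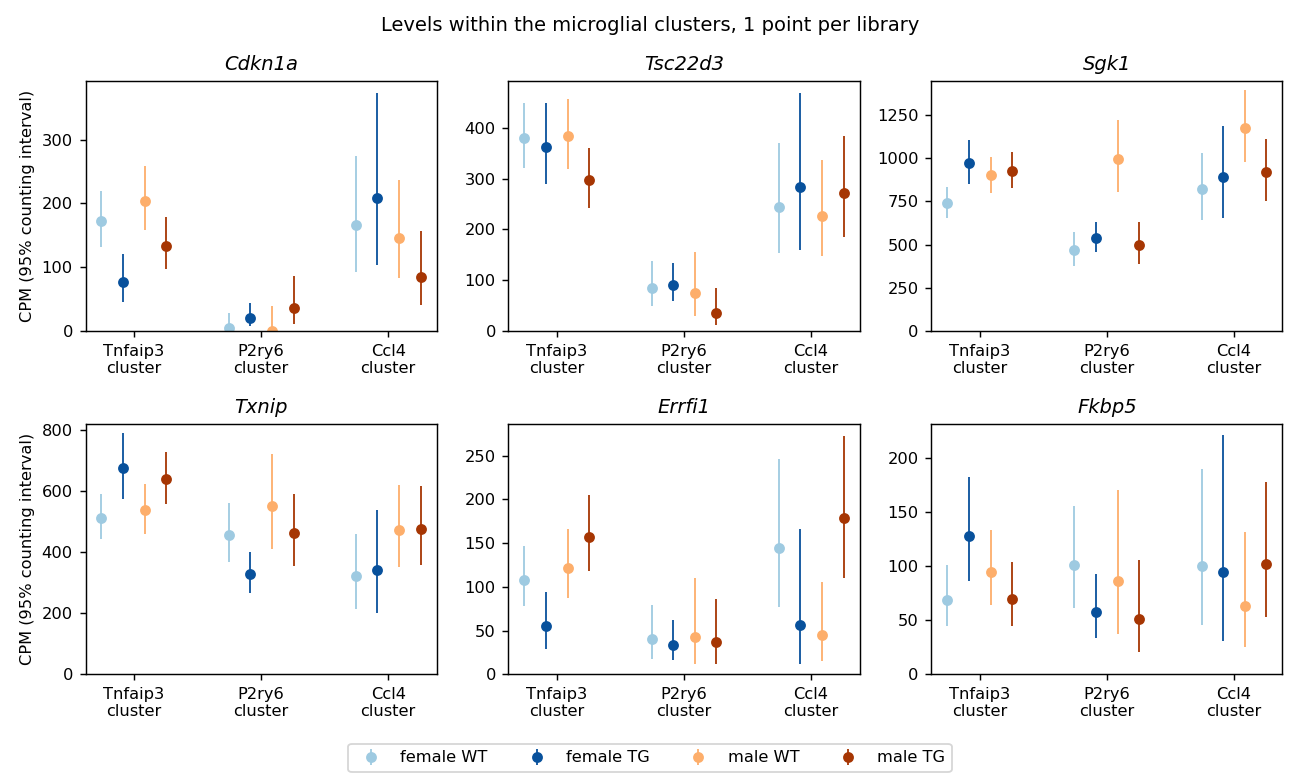
Levels of members (CPM, vertical axes) in the 3 microglial clusters (horizontal axis), 1 point per library with its 95% counting interval. Cdkn1a and Tsc22d3 were low in the P2ry6 cluster, at 16.6 and 77.6 CPM over all libraries, against 152 and 355 CPM in the Tnfaip3 cluster.

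Tsc22d3 in microglia was at 274 and 218 CPM in females and 297 and 233 CPM in males, and both Tg2576 libraries were the lower ones. The estimate was -0.39 ± 0.17 (SE, edgeR adjusted p = 0.430), which did not pass. It was at 355, 77.6 and 254 CPM in the Tnfaip3, P2ry6 and Ccl4 clusters, and within the Tnfaip3 cluster the female ratio was -0.07 (interval -0.48 to 0.32) and the male one -0.37 (-0.76 to 0.02).

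In endothelial cells Tsc22d3 was at 225 and 185 CPM in females and 304 and 112 CPM in males. The male ratio, -1.44 (interval -2.03 to -0.87), was the largest of any member with 100 UMIs, and the female one was -0.28 (-0.80 to 0.24). The estimate over both sexes was -0.89 ± 0.29 (edgeR adjusted p = 0.911), and without a cluster of 61 endothelial cells led by interferon-induced genes, found almost entirely in the female Tg2576 and male wild-type libraries, it was -0.91 (adjusted p = 0.066). Genes induced by tissue dissociation moved with it. The summed level of 17 such genes in endothelial cells was 11492 and 6396 CPM in females and 17427 and 11743 CPM in males, with no gene at 0, and their part in the result was not tested.

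Ddit4 in oligodendrocytes was at 133 and 34.9 CPM in females and 175 and 74.2 CPM in males, from 19, 6, 28 and 13 UMIs, and the Tg2576 libraries lay below the wild-type ones. The estimate was -1.50 ± 0.39 (SE, edgeR adjusted p = 0.068), short of the threshold, and passed in 1 of 10 alternatives, the one with no mitochondrial limit (0.025). The summed level of the 17 dissociation genes was on the same side, at 4911 and 3050 CPM in the female and 4068 and 3739 CPM in the male libraries, with 1 gene at 0 in each wild-type library. Of the 12 tested, 6 were under an unadjusted p of 0.05, against 219 of all 3085 genes, with a median log2 difference of -0.45, and their part in the Ddit4 difference was not tested.

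Sgk1, Fkbp5 and Txnip were close between the genotypes over all microglia, though not in every cluster. Txnip was at 471 and 470 CPM in females and 527 and 567 CPM in males, with an edgeR estimate of 0.00 ± 0.15. Fkbp5 gave -0.11 ± 0.24 and Sgk1 -0.09 ± 0.14, and Sgk1 pointed to different sides in the sexes, with 0.15 for females (interval -0.04 to 0.35) and -0.23 for males (-0.41 to -0.05). The female Txnip interval, -0.24 to 0.24, did not reach 0.5. By cluster, the female Txnip ratio was 0.40 (0.09 to 0.71) in the Tnfaip3 and -0.48 (-0.91 to -0.05) in the P2ry6 cluster. Sgk1 was at 0.39 (0.13 to 0.65) in the female Tnfaip3 and -0.99 (-1.47 to -0.52) in the male P2ry6 cluster. Fkbp5 was at 0.89 (0.09 to 1.71) in the female Tnfaip3 cluster, from 26 and 30 UMIs. All other cluster intervals of these genes included 0.

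No gene of the 24 other glucocorticoid targets passed the genotype test by edgeR in the 4 types. In microglia 11 were tested and 5 had an unadjusted p under 0.05, against 675 of all 7479 genes, with a median log2 difference of -0.31 against -0.01 over all genes. Over all genes, DESeq2 called none in microglia, oligodendrocytes and endothelial cells and 2 in astrocytes. Glul, glutamine synthetase, was at 1426 and 1214 CPM in females and 1528 and 1168 CPM in males in microglia. Dusp1 in endothelial cells was at 702 and 437 CPM and at 963 and 612 CPM.

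Among 20 genes of the integrated stress response and mTORC1, 1 of 11 tested fell in microglia, Trib1, a pseudokinase adaptor, at 217 and 91.0 CPM in females and 141 and 98.7 CPM in males (-0.96 ± 0.20, edgeR adjusted p = 0.00163). Of the 27 zinc and copper genes, none of the 16 tested in microglia passed. Atox1, a copper chaperone, was at 120 and 177 CPM in females and 175 and 251 CPM in males. None of the 13 zinc and copper genes tested in astrocytes passed, 2 being under an unadjusted p of 0.05, against 438 of all 5209 genes.

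Of the lists on p53 and arrest (13 tested in microglia), thioredoxin and glucose sensing (17), hypoxia (8), growth factor feedback (5) and receptor and hormone handling (9), no gene passed the genotype test in microglia by edgeR, with 0, 2, 1, 1 and 0 genes under an unadjusted p of 0.05 (675 of all 7479 genes). None of these lists held a gene that passed in the other 3 types either. Of the 17 dissociation genes, Fosb fell in microglia (-0.50 ± 0.14, adjusted p = 0.0456). By edgeR 7 of the 17 were under an unadjusted p of 0.05 there, against 675 of all 7479 genes, with a median log2 difference of -0.16. Their summed level in microglia was 35626 and 28455 CPM in females and 43434 and 44571 CPM in males. Their part in the Cdkn1a difference was not tested.

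Males and females were compared by the same edgeR fit, with genotype as the covariate and 2 libraries on each side. Of 28 tests of members 4 passed, all higher in males, against 6.16% of all genes in microglia, 3.23% in astrocytes, 2.2% in oligodendrocytes and 0.18% in endothelial cells. Mt1 rose in male astrocytes by 0.58 ± 0.11 on the log2 scale (SE, adjusted p = 1.04e-04) and in male microglia by 0.82 ± 0.17 (adjusted p = 9.57e-05). The call was lost in 3 of 11 alternatives in astrocytes, with adjusted p up to 0.348, and in 2 of 13 in microglia, up to 0.9998. In microglia its levels were 202 and 184 CPM in the female and 327 and 363 CPM in the male libraries, which did not overlap. In oligodendrocytes (0.71 ± 0.22, adjusted p = 0.069) and endothelial cells (0.38 ± 0.19, 0.553) Mt1 was on the same side without passing. Cdkn1a in endothelial cells was lower in males (-0.94 ± 0.22, adjusted p = 0.267), and passed in 2 of 13 alternatives.

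Mt2 rose in male oligodendrocytes by 1.43 ± 0.39 (edgeR adjusted p = 0.0313), with 8 and 9 UMIs in the female and 24 and 28 in the male libraries (56.2, 52.4, 150 and 160 CPM). This call was lost in 6 of 10 alternatives (adjusted p between 0.0107 and 0.995). As a share of its astrocyte level, oligodendrocyte Mt2 was below the highest astrocyte marker in every library but the male wild-type one. The part of astrocyte RNA in this difference was not tested. Errfi1 rose in male microglia by 0.70 ± 0.23 (adjusted p = 0.0417), at 93.0 and 44.6 CPM in females and 92.2 and 134 CPM in males, where the wild-type libraries were level and only the Tg2576 ones differed. It was lost in 8 of 13 alternatives (adjusted p between 0.0211 and 0.9998). Mt3 in astrocytes gave 0.25 ± 0.12 (adjusted p = 0.257) and Mt2 0.34 ± 0.12 (0.085). None of the 4 passed with DESeq2, whose unadjusted p for Mt1 was 1.89e-04 in astrocytes and 0.013 in microglia.

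Several measures moved with sex in the same libraries. The free RNA carried more Mt1 in males, as given above. The mitochondrial share of microglia was 6.96% and 6.74% in females and 4.83% and 3.48% in males, and the summed level of the 17 dissociation genes was 35626 and 28455 CPM in females and 43434 and 44571 CPM in males. In microglia, where 6.16% of all genes passed, 9 of the 17 dissociation genes were higher in males and 2 lower (Hspa1a and Hspa1b). Among the higher ones were Fos, Fosb, Junb, Jund, Egr1, Ier2, Ier3 and Zfp36. Their part in the sex differences of the members was not tested, and with 1 pool per sex and genotype the sex of the mice and the handling of the pools cannot be told apart.

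Among the other lists, Dusp1 (0.63 ± 0.14) and Nfkbia (0.67 ± 0.14), an inhibitor of NF-kB, rose in male microglia of 11 glucocorticoid targets tested. So did Atf4, Ppp1r15a and Herpud1 of 11 stress response genes and Gadd45b and Btg2 of 13 p53 and arrest genes. Arrdc3 rose too, of 17 thioredoxin and glucose sensing genes. Over all genes, 461 of 7479 (6.16%) passed this sex test in microglia, and 17 passed with DESeq2. The zinc importer Slc39a10 was lower in male microglia (-0.999 ± 0.265, edgeR adjusted p = 0.00705), as was the receptor chaperone Hsp90aa1 (-0.55 ± 0.14, 0.00566), which was also lower in male oligodendrocytes. In astrocytes Hsd11b1 was higher in males (0.96 ± 0.28, adjusted p = 0.0274).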

How the data were processed

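Cortical cells of 4 Drop-seq libraries, 1 for each sex and genotype, were analysed from UMI counts per gene and barcode as deposited by the authors, who sequenced on a NextSeq 500. The submitters' processing notes name mm10 and Seurat 3.1.4. The aligner, and how the similar reads of Mt1 and Mt2 were assigned, are not given in the sources used here. Barcodes with 200 to 7000 genes and at most 20% mitochondrial UMIs were kept, normalised with sctransform 0.4.2 and clustered in Seurat 5.3.0, and clusters were named by markers. Doublets were called in scanpy 1.11.5 (92 of 4835 cells) and left out only as an alternative. Counts were summed per library and type and tested with edgeR 4.0.16 (TMM, filterByExpr, quasi-likelihood), with DESeq2 1.42.0 as an alternative. edgeR was tested on simulated data. Intervals were computed in scipy 1.17.1. The libraries held 1926857 to 2294296 UMIs, so that a member with under 100 UMIs in a pair of libraries gives no usable ratio. The genotype and sex fits leave 1 residual degree of freedom, since each group was 1 pool. Their p-values from edgeR also rest on a spread shared over genes, and do not measure the spread between pools of a group. Those between cell types use such a shared spread too. They do not measure the spread of a single gene over the 4 libraries alone.

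All 10 members are named. For each, the 3 genes with the highest r are named, and from each list up to 3 genes with the largest change shared by both sexes and those called by edgeR. Some genes that this rule names are not reported here. The members and lists were chosen with earlier results of these data known. Alternatives added after seeing the data left out the interferon cluster or used the largest microglial cluster alone. The protein sequences were not used here.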

Additional observations from a re-analysis of the deposited data

Results flagged for a closer look

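For 3 members the Tg2576 to wild-type ratio pointed to opposite sides in females and males, with both counting intervals off 0 before TMM scaling. Whether the sexes differ was not tested, since each ratio rests on 2 libraries. Mt2 in endothelial cells had a log2 ratio of -0.46 in females (343 and 250 CPM) and 0.48 in males (280 and 391 CPM). Errfi1 in microglia had -1.06 in females (93.0 and 44.6 CPM) and 0.54 in males (92.2 and 134 CPM), from 62, 26, 49 and 80 UMIs. The female pair held under 100 UMIs, short of the limit for a usable ratio. Mt1 in oligodendrocytes had -0.69 in females (562 and 349 CPM) and 0.45 in males (649 and 885 CPM). TMM factors shift the log2 ratios by 0.0646 in female endothelial cells and by -0.0487 in male microglia. With these shifts the female Mt2 interval, whose upper end was -0.0318, would include 0. So would the male Errfi1 interval, whose lower end was 0.0070. Both Mt1 intervals would stay off 0. In oligodendrocytes the median of 10 astrocyte markers was at 2.79% and 1.5% of its astrocyte level in females and 2.56% and 3.66% in males, so it was lower in female and higher in male Tg2576 mice too, and its part in the Mt1 ratio was not tested.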

How the results depend on the processing

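No paired analysis was possible because each group is 1 library and the groups share only the replicate number 1. Of the members' genotype tests, 1 passed as reported, and 0 passed with a mitochondrial limit of 10%, one of 5%, cells thinned to 500 UMIs, the largest microglial cluster alone, no TMM factors, no filter, no covariate or DESeq2. In the other 6 alternatives 1 passed, which without a mitochondrial limit was Ddit4 in oligodendrocytes in place of Cdkn1a in microglia. Of the sex tests, 4 passed as reported, 2 with a mitochondrial limit of 5%, thinning, the largest microglial cluster alone or no filter, 1 with no covariate, 0 with DESeq2 and 3 to 5 otherwise. Of the ratios 6 of 29 were past 0.5, and 2 of 21 with a mitochondrial limit of 10%. Neighbouring cell types stood apart in 13 pairs, in 7 with that limit and in 8 after thinning, which also moved the highest type of Ddit4 and Cdkn1a from mural to endothelial cells. Contrasts between cell types passed in 42 tests, and in 41 to 43 without any 1 library. The female Mt1 ratio in astrocytes reversed to -0.17 with the limit of 10% and to -0.0200 with TMM factors, which shift all log2 ratios there by -0.15, and the male Sgk1 ratio in microglia went from -0.23 to 0.0438 in the largest cluster alone. The cause was not tested. Astrocytes and oligodendrocytes could not be fitted at a limit of 5%, where a library held under 5000 UMIs.

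Calls over all genes depended on the processing too. In the genotype fits they ranged over the alternatives from 0 to 44 in microglia (50 as reported), 1 to 14 in astrocytes (12), 0 to 12 in oligodendrocytes (7) and 0 to 18 in endothelial cells (0). In the sex fits they ranged from 11 to 467 (461), 5 to 237 (168), 3 to 75 (68) and 0 to 82 (10). Between cell types they ranged from 2694 to 6166 for astrocytes against microglia (3719), 2542 to 5052 for oligodendrocytes against microglia (3407), 2067 to 4574 for endothelial cells against microglia (2772), 1665 to 3192 for astrocytes against oligodendrocytes (2393), 2248 to 4744 for astrocytes against endothelial cells (3154) and 2004 to 3734 for endothelial cells against oligodendrocytes (2781). Depth limits Fkbp5, Ddit4 and Errfi1 most, with 238 to 368 UMIs in all cells.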

Other observations

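One cell carried most of a metallothionein signal. Among the male wild-type cells with a neuroblast or progenitor profile, Mt2 was at 792 CPM against 42.9 to 91.6 CPM in the other 3 libraries. A single cell of 23856 UMIs, with 82 Mki67 and 112 Top2a UMIs, the genes of dividing cells, held 56 of the 67 Mt2 UMIs and 21 of the 28 Mt1 UMIs, and without it Mt2 was at 181 CPM.

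A cluster of 103 cells that stayed unnamed, since it held markers of both macrophages (Lyve1, Pf4 and Mrc1) and ependymal cells (Ccdc153 and Tmem212), had Mt1 at 2135 CPM, Mt3 at 1316 CPM, Mt2 at 612 CPM and Txnip at 538 CPM. The 52 olfactory ensheathing cells had Mt1 at 530 CPM and Ddit4 at 151 CPM from 14 UMIs, with 4 UMIs of Mt2 and 2 of Mt3.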
